A study of Mus musculus with 2 samples.

Results

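The C/EBP family was described in single cells of RENCA tumours through 6 genes chosen by symbol from the 55357 genes of the deposited table: Cebpa, Cebpb, Cebpd, Cebpe, Cebpg and Cebpz. The tumours carried the label SMYD3 knockdown in 1 library and the label WT in the other. RENCA is a mouse renal carcinoma line, SMYD3 is a lysine methyltransferase, and the cells had been engrafted into the kidney of BALB/c mice. Sorted CD45+ cells were profiled by 10x Genomics droplet sequencing, so the sorted cells belong to the host and the knockdown belongs to the engrafted cells. The number of mice per library, their age and the means of the knockdown are not stated in the labels. The family had been picked because Cebpb was lower across the cell classes of the library labelled SMYD3 knockdown, so its values between the libraries are a description and carry no test. With 1 library per label there is no replicate check, and every interval below covers counting error only.

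C/EBP proteins are basic leucine zipper (bZIP) factors that bind DNA as dimers, with each other or with related zipper proteins. C/EBP-alpha is required to form granulocyte and monocyte progenitors, C/EBP-epsilon for the late steps of granulocyte maturation, and C/EBP-beta for emergency granulopoiesis and for much of the inflammatory and alternative activation of macrophages. C/EBP-delta is induced by inflammatory signals and shares many sites with C/EBP-beta. C/EBP-gamma lacks a full activation domain and acts mainly as a dimer partner, also of ATF4. Cebpz encodes a CCAAT-binding nuclear protein with a part in ribosome assembly, and it is no bZIP factor despite its name.

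Cebpb lies on mouse chromosome 2 (mm10, GENCODE vM21) at chr2:167688915-167690418 on the plus strand, as a single exon of 1504 bases with 67.2% GC. Cebpa, at chr7:35119293-35121928 on the plus strand, and Cebpd, at chr16:15887286-15891031 on the plus strand, also have no intron, with longest transcripts of 2626 and 3746 bases. Cebpg lies 62719 bases from Cebpa at chr7:35046422-35056573 on the minus strand. Cebpe lies at chr14:54710360-54712174 on the minus strand. Cebpz lies at chr17:78919006-78937066 on the minus strand with 16 exons, and its span overlaps the antisense gene Cebpzos by 1301 bases. UMIs of Cebpz and Cebpzos can be told apart only as far as the counting used strand, and the labels do not say whether it did.

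The RefSeq promoter table (GRCm38.p6, 250 bases before and 50 after the annotated start) held 3 of the 6 members, and all 3 are shown. Whether these sequences bear on the difference between the libraries was not tested. Capitals mark the letters TATAAA, and TGACG or its reverse complement CGTCA, which is the half-site bound by CREB and ATF proteins.
Cebpb: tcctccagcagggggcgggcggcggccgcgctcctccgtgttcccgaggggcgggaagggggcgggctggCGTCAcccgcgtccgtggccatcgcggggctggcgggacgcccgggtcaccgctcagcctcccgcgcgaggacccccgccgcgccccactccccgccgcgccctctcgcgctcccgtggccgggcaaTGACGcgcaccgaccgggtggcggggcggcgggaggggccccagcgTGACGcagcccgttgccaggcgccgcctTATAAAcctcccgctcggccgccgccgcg
Cebpa: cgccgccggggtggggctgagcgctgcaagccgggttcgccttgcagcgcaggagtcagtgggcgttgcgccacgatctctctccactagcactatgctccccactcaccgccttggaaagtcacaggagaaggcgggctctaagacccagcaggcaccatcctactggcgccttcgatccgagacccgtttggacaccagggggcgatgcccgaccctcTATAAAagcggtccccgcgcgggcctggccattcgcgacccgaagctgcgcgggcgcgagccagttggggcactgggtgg
Cebpg: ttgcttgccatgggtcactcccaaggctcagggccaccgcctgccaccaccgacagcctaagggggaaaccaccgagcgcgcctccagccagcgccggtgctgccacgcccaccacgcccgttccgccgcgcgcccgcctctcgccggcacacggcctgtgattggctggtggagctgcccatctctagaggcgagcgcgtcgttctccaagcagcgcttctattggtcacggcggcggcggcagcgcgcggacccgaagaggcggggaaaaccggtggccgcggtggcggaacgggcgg
The Cebpb window, chr2:167688665-167688964 on the plus strand, was 80.7% GC, above 99.2% of the 32851 promoters in the table, against 67.3% for the Cebpa window and 71.7% for the Cebpg window. TGACG stood at bases -53 and -7 from the Cebpb start and in the reverse orientation at -180, and no copy stood in the other windows. At least 1 copy on either strand stood in 20.8% of all promoters. TATAAA began at base 22 of the Cebpb transcript and at -30 of Cebpa, and 13.6% of all promoters held it. The letters GGGCGG, the core of the Sp1 site, stood 5 times in the Cebpb window, some copies overlapping, and in 35.7% of all promoters at least once. CCAAT stood only in the Cebpg window, in the reverse orientation at -89 and -28, and in 37.4% of all promoters. The C/EBP site pattern TTGCNNAA was in none of the 3 windows and in 10.8% of all promoters.

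The library labelled SMYD3 knockdown held 10186 barcodes with a median of 8309.5 UMIs, against 9265 barcodes and 9119 UMIs in the library labelled WT. Both libraries shared 22 barcode sequences. After filters on cells and removal of likely doublets, 8784 and 8079 cells were kept, and they were gated by marker genes into classes named by those markers. The labels call the sample epithelial, but nearly all gated cells were myeloid, and 58 cells labelled knockdown and 102 cells labelled WT carried keratin markers (tumour-like). Each of 7 classes had at least 50 cells in both libraries: 3611 and 3795 macrophage-like, 1356 and 1046 monocyte-like, 822 and 992 mixed monocyte-macrophage-like, 1384 and 811 neutrophil-like, 128 and 173 dendritic cell-like, and 91 and 126 T cell-like cells beside the tumour-like ones, knockdown label first. Another 150 pancreatic acinar-like cells came from the library labelled knockdown and 0 from the library labelled WT. Levels are given as CPM, the UMIs of a gene per 1000000 UMIs in the class. Summed acinar markers were at 348 CPM in macrophage-like and 1993 CPM in neutrophil-like cells labelled knockdown, against 0.0451 and 0.864 CPM labelled WT. Leaving these genes and the mitochondrial genes together out of the totals moved no Cebpb ratio beyond its interval. No lower Smyd3 level was seen in the library labelled knockdown: tumour-like cells, the class that could carry the knockdown, held 29 UMIs labelled knockdown and 40 labelled WT, a CPM ratio of 1.18 (0.703 to 1.94). Among host cells, monocyte-like cells held 182 Smyd3 UMIs labelled knockdown and 110 labelled WT, a ratio of 1.35 (1.06 to 1.73). The counts thus gave no check in favour of the labels.

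Cebpb was the most abundant family member in neutrophil-like cells and the member that differed most between the libraries. Neutrophil-like cells held 2309 UMIs, or 1113 CPM (95% Poisson interval 1068 to 1159), in the library labelled knockdown and 5098 UMIs, or 4403 CPM (4283 to 4526), in the library labelled WT. The ratio of the knockdown label over the WT label was 0.253 (0.241 to 0.266). Monocyte-like cells had 417 CPM labelled knockdown and 1413 CPM labelled WT, a ratio of 0.295 (0.287 to 0.304). Mixed monocyte-macrophage-like cells had 335 CPM against 1218 CPM labelled WT, a ratio of 0.275 (0.265 to 0.285). In these 3 classes the intervals of the libraries were far apart. Macrophage-like cells, the largest class, had 199.6 CPM from 9498 UMIs in the library labelled knockdown and 883 CPM from 39153 UMIs in the library labelled WT, a ratio of 0.226 (0.221 to 0.231). Tumour-like cells had 152 CPM labelled knockdown and 551 CPM labelled WT, a ratio of 0.275 (0.238 to 0.318). The keratin-positive cells had a ratio in the range of the myeloid classes. Over all kept cells the levels were 282 CPM labelled knockdown and 1048 CPM labelled WT. Cells that no marker list gated had 368 CPM labelled knockdown and 1218 CPM labelled WT. Classes too small to compare went both ways on few UMIs. Plasmacytoid dendritic cell-like cells had 142 CPM (71.0 to 255) from 11 UMIs labelled knockdown and 54.2 CPM (23.4 to 107) from 8 UMIs labelled WT. Endothelial-like cells had 668 CPM from 7 UMIs in 2 cells labelled knockdown and 178 CPM from 19 UMIs in 17 cells labelled WT. Natural killer-like cells held 2 UMIs labelled knockdown and 14 labelled WT, and fibroblast-like cells 0 UMIs in 4 cells labelled knockdown and 101 UMIs in 12 cells labelled WT.

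**Figure D1:**
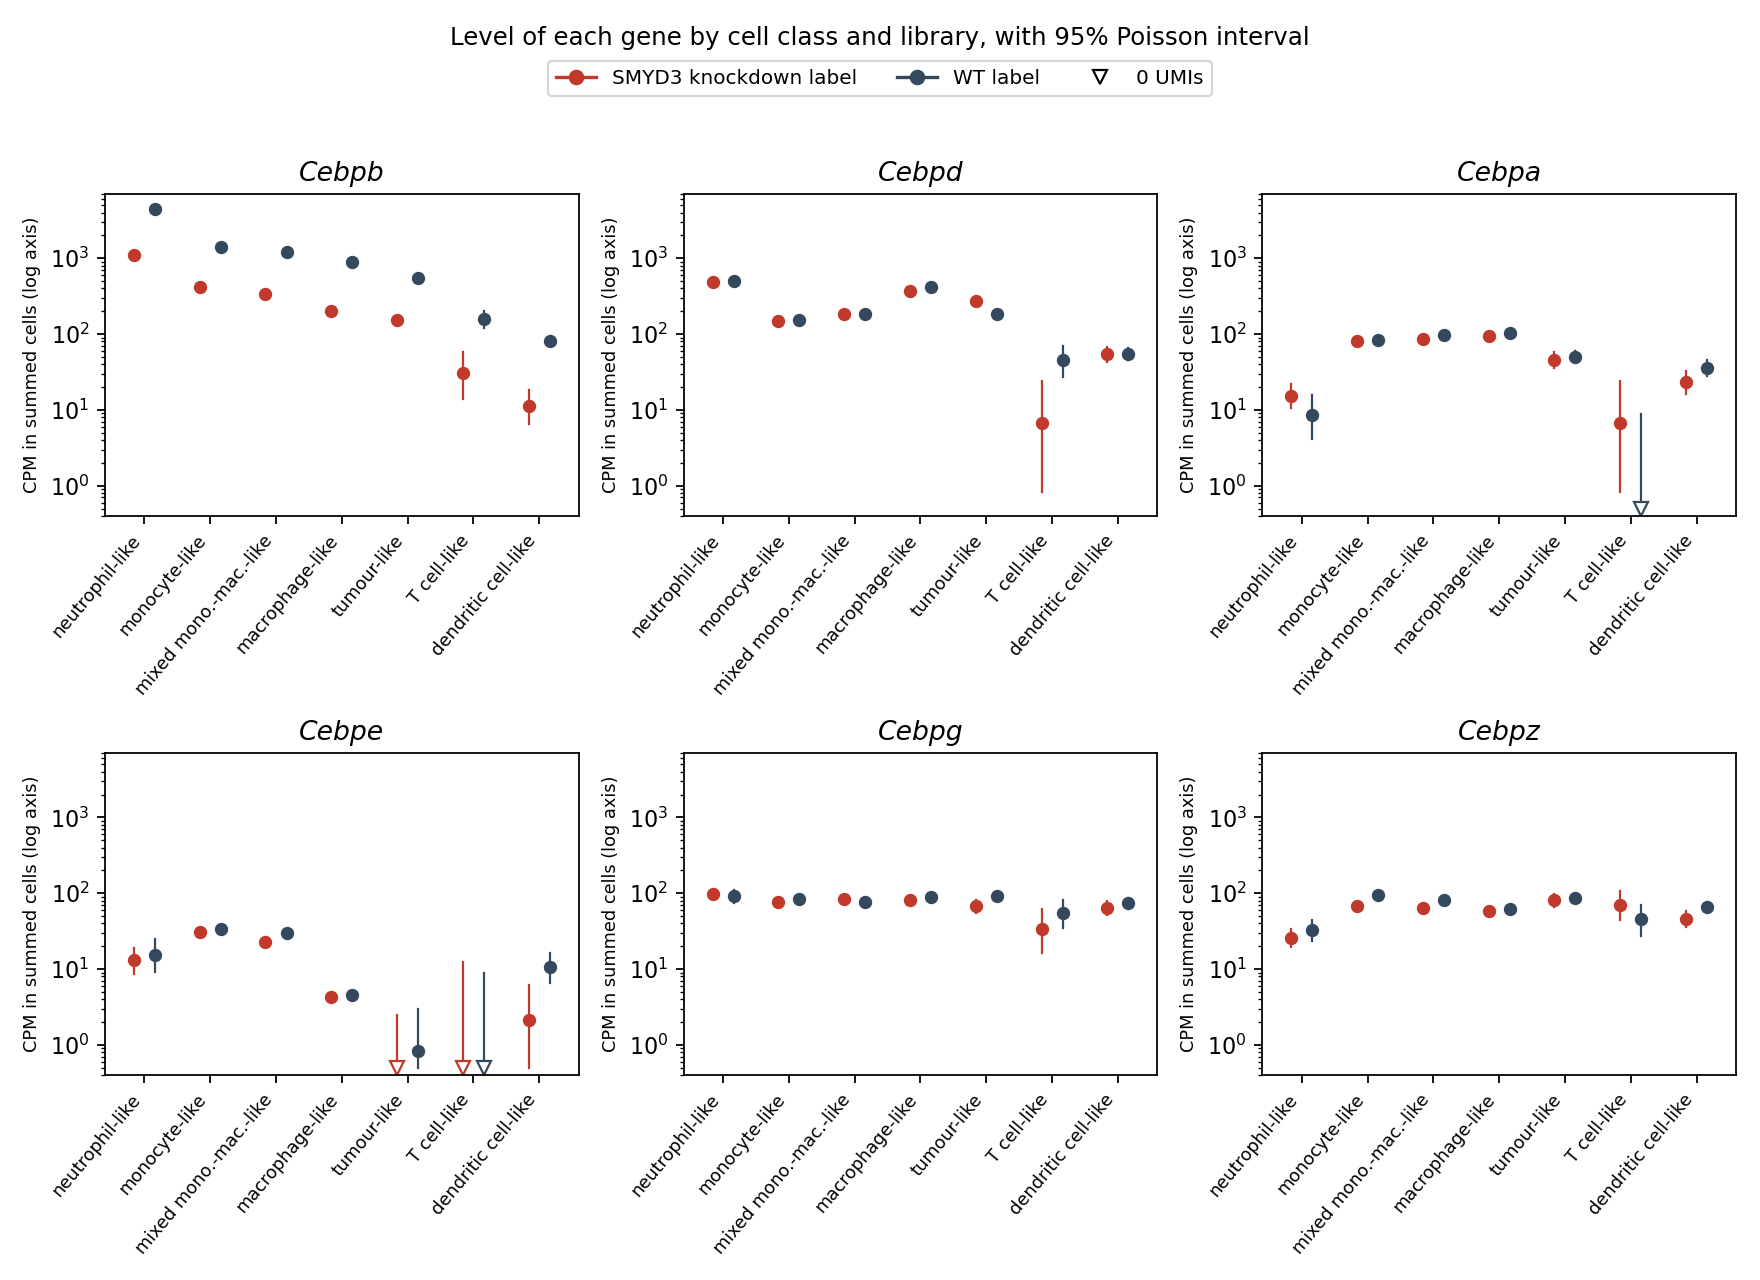
Level of each C/EBP gene (CPM of summed cells, log axis) in 7 classes, with the knockdown-labelled library left of the WT-labelled library in each pair. Bars are 95% Poisson intervals and open triangles mark 0 UMIs. Cebpb separates the pairs in every class, from 1113 against 4403 CPM in neutrophil-like cells to 11.3 against 82.1 CPM in dendritic cell-like cells, while most pairs of the other genes lie close together.

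Cebpb was at least 1.5-fold lower in all 7 classes. Among all genes tested, which needed at least 20 UMIs and at least 10 CPM in either library of the class, 1.37% were that much lower in macrophage-like cells, 1.59% in monocyte-like, 2.36% in mixed monocyte-macrophage-like, 8.71% in neutrophil-like, 8.02% in tumour-like, 9.79% in dendritic cell-like and 12.8% in T cell-like cells. Genes at least 1.5-fold higher made up 0.456%, 0.71%, 0.904%, 5.97%, 3.89%, 3.46% and 7.27% in the same order of classes. Since this contrast chose the gene, nothing is read from those shares or from the places that follow. Ordered by the plain CPM ratio, Cebpb stood at place 2 from the lowest of 7900 genes in macrophage-like cells and of 7751 in monocyte-like cells. It stood at place 3 of 5558 in neutrophil-like and at place 32 of 9195 in tumour-like cells.

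The order of classes by Cebpb level was the same in both libraries: neutrophil-like, monocyte-like, mixed monocyte-macrophage-like, macrophage-like, tumour-like, T cell-like and dendritic cell-like. All neighbours in that order had separate intervals in both libraries, except the T cell-like and dendritic cell-like classes labelled knockdown, at 30.3 CPM (13.9 to 57.6) and 11.3 CPM (6.45 to 18.3). Free RNA in droplets gives low counts in every class, so the lowest places were set beside marker genes of other cells.

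T cell-like cells held 9 Cebpb UMIs labelled knockdown and 66 labelled WT, which is 30.3 and 157 CPM and a ratio of 0.193 (0.0847 to 0.390). These levels were 15.2% of the macrophage-like level in the library labelled knockdown and 17.8% in the library labelled WT. For C1qa, a complement gene of macrophages, the same share was 4.77% labelled knockdown and 6.92% labelled WT, and for Apoe it was 4.61% and 5.45%. Summed macrophage markers in T cell-like cells were 1470.0 CPM labelled knockdown and 1901 CPM labelled WT, and their part in the Cebpb values was not tested. After thinning every cell to 1000 UMIs, 1.11% of T cell-like cells labelled knockdown had a Cebpb UMI, against 16.3% labelled WT. Dendritic cell-like cells held 16 Cebpb UMIs labelled knockdown and 164 labelled WT, a ratio of 0.137 (0.0767 to 0.230). Of the 164 UMIs, 113 came from the 46 cells of the deepest quartile, where 30 cells labelled knockdown held 3 UMIs. In the shallowest quartile the counts were 3 and 9 UMIs, with a ratio of 0.473 and an interval of 0.0824 to 1.90 that includes 1. That deepest quartile labelled WT also held 46 of the 72 Cebpa UMIs and 18 of the 21 Cebpe UMIs of the class. Summed monocyte markers in dendritic cell-like cells were 497 CPM labelled knockdown and 621 CPM labelled WT, and their part was not tested.

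The lower Cebpb level was spread over cells. A macrophage-like cell held a median of 2 Cebpb UMIs in the library labelled knockdown and 8 in the library labelled WT, with upper quartiles of 4 and 14. No Cebpb UMI was found in 20.9% of macrophage-like cells labelled knockdown and in 4.93% labelled WT. Monocyte-like cells had medians of 4 UMIs labelled knockdown and 14 labelled WT, and 6.56% of cells at 0 against 0.382%. Neutrophil-like cells, which were shallow at a median of 1449 UMIs labelled knockdown and 1378 labelled WT in all, had medians of 1 and 5 Cebpb UMIs, with 31.2% of cells at 0 labelled knockdown and 3.95% labelled WT. Thinned to the same 1000 UMIs, a Cebpb UMI was present in 59.4% of neutrophil-like cells labelled knockdown and 94.7% labelled WT, and in 19.5% and 56.2% of macrophage-like cells. The T cell-like shares after thinning, given above, lay below both.

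The ratio did not follow cell depth in the well-filled classes. Across quartiles of UMIs per cell it was 0.230, 0.227, 0.231 and 0.242 in macrophage-like cells and 0.255, 0.263, 0.265 and 0.238 in neutrophil-like cells, from the shallowest to the deepest. Monocyte-like quartiles gave 0.278 to 0.305. Of 19 clusters made without the 6 members, 18 had at least 20 cells in each library, and the Cebpb ratio there ran from 0.191 in a cluster mostly of macrophage-like cells to 0.367 in a small cluster of dendritic cell-like cells. The interval lay below 1 in 17 of the 18, and the exception held 4 and 18 UMIs. Neutrophil-like clusters had ratios of 0.254 and 0.273.

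**Figure D2:**
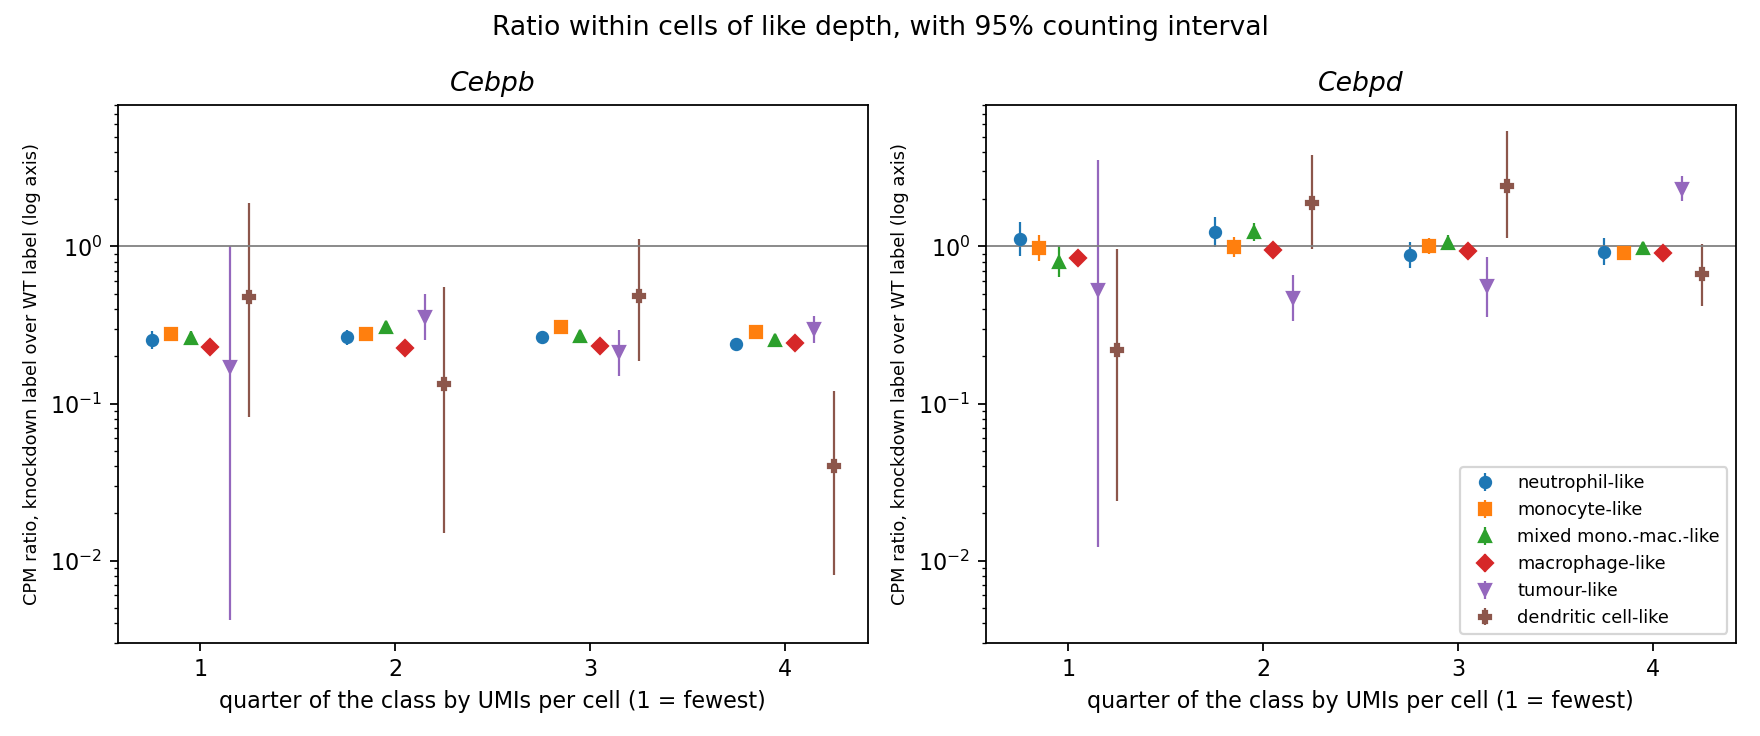
CPM ratio of Cebpb (left) and Cebpd (right), knockdown label over WT label on a log axis, within quartiles of UMIs per cell, with 95% counting intervals. Cebpb stays between 0.227 and 0.306 in the 4 myeloid classes at every depth, while the tumour-like Cebpd ratio is 0.468 and 0.562 in the middle quartiles and 2.33 in the deepest.

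Few other genes were lower everywhere. Being lower across the classes is what chose Cebpb, so its place here is a description. Of the 2937 genes tested in all 7 classes, 11 were at least 1.5-fold lower in each, or 0.375%, and Cebpb had the largest difference when genes were ordered by their weakest class. The next were Gm10076 with ratios of 0.344 to 0.434 and Gm28438 with 0.239 to 0.449. Ppp1r14b, an inhibitor of protein phosphatase 1, had ratios of 0.277 to 0.486, and Sec61g, a subunit of the translocon of the endoplasmic reticulum, 0.203 to 0.538. The others were Rps28, Rpl38, Rps29 and Rps27, which encode ribosomal proteins, Sap30l of the Sin3 co-repressor complex and Ppp2r2d, a regulatory subunit of protein phosphatase 2A. Ribosomal protein genes have close copies elsewhere in the genome, so their counts are uncertain. A further 6 genes, all of pancreatic enzymes, were at least 1.5-fold higher in all 7 classes.

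Gene structure moved with the differences between the libraries. Across genes, which are not independent, Spearman's rho of the log2 difference with transcript length was -0.286 in macrophage-like, -0.278 in monocyte-like and -0.370 in mixed monocyte-macrophage-like cells. In macrophage-like cells, 3.66% of genes with a single exon were at least 1.5-fold lower against 1.19% of genes with several, and 4.27% of genes of 60% GC or more against 1.07% of those below 45%. Cebpa, without introns and with 62.6% GC, had a macrophage-like ratio of 0.916, and Cebpd, also without introns and 51.6% GC, had 0.909. Whether structure bears on the Cebpb value was not tested.

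Cebpd, the inflammatory partner of Cebpb, was close to equal in most classes. Macrophage-like cells had 374 CPM labelled knockdown and 412 CPM labelled WT, a ratio of 0.909 (0.891 to 0.928) from 17813 and 18257 UMIs. Neutrophil-like cells had the highest level, 488 CPM (459 to 519) labelled knockdown and 499 CPM (459 to 542) labelled WT, a ratio of 0.978 (0.882 to 1.09). The other mononuclear classes had 1 inside their intervals, with ratios of 0.964 (0.905 to 1.03) for monocyte-like, 1.02 (0.962 to 1.08) for mixed monocyte-macrophage-like and 0.995 (0.733 to 1.34) for dendritic cell-like cells. A macrophage-like cell held a median of 4 Cebpd UMIs labelled knockdown and 3 labelled WT. Unlike Cebpb, Cebpd stood higher in macrophage-like than in monocyte-like cells, at 374 against 149.8 CPM in the library labelled knockdown and 412 against 155 CPM in the library labelled WT.

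Tumour-like cells had 408 Cebpd UMIs, or 276 CPM, labelled knockdown and 434 UMIs, or 181 CPM, labelled WT, a ratio of 1.52 (1.33 to 1.75), and 3.89% of all genes tested in that class were at least 1.5-fold higher. The median was 2 UMIs per cell in both libraries, and 310 of the 408 UMIs labelled knockdown came from the 15 deepest cells, against 215 of the 434 labelled WT from 25 cells. With each cell weighing the same the ratio was 1.02, and thinned to 1000 UMIs it was 1.01. T cell-like cells held 2 Cebpd UMIs labelled knockdown and 19 labelled WT, which were under the minimum of 20.

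Cebpa, the progenitor factor, was a gene of the mononuclear classes. Macrophage-like cells had 94.5 CPM (91.8 to 97.3) labelled knockdown and 103 CPM (100.2 to 106) labelled WT, a ratio of 0.916 (0.879 to 0.955). Mixed monocyte-macrophage-like cells had 87.1 CPM labelled knockdown and 97.9 CPM labelled WT, a ratio of 0.890 (0.817 to 0.968), and monocyte-like cells 81.5 and 83.9 CPM, a ratio of 0.971 (0.891 to 1.06). These levels were all within 1.5-fold of each other between libraries. Neutrophil-like cells held 32 UMIs labelled knockdown and 10 labelled WT, at 15.4 CPM (10.5 to 21.8) and 8.64 CPM (4.14 to 15.9), and the ratio of 1.79 had an interval of 0.857 to 4.07. In that class 5.97% of genes tested were at least 1.5-fold higher. Dendritic cell-like cells had 23.3 CPM labelled knockdown and 36.1 CPM labelled WT, a ratio of 0.645 (0.414 to 0.987), with most UMIs labelled WT in the deepest quartile given above. Tumour-like cells had 46.1 CPM labelled knockdown and 49.7 CPM labelled WT, and T cell-like cells held 2 UMIs and 0 UMIs, where a count of 0 allows up to 7.13 CPM.

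Cebpe, the factor of late granulocyte maturation, was highest in monocyte-like cells and not in neutrophil-like cells when cells were classed by gate. The order differed by cluster. The monocyte-like cluster had 22.0 CPM labelled knockdown and 18.0 CPM labelled WT, and the largest neutrophil-like cluster 19.2 and 24.7 CPM. Mixed monocyte-macrophage-like clusters ran from 14.7 to 29.4 CPM labelled knockdown and from 12.6 to 40.4 CPM labelled WT. The values below are by gate. Monocyte-like cells had 30.5 CPM (27.7 to 33.6) labelled knockdown and 33.6 CPM (30.4 to 37.1) labelled WT, a ratio of 0.908 (0.790 to 1.04). Mixed monocyte-macrophage-like cells had 22.6 CPM labelled knockdown and 30.3 CPM labelled WT, a ratio of 0.745 (0.633 to 0.876). Neutrophil-like cells held 27 UMIs labelled knockdown, with an interval of 8.58 to 18.9 CPM, and 18 UMIs labelled WT, with an interval of 9.21 to 24.6 CPM. Macrophage-like cells, at 4.31 CPM labelled knockdown and 4.53 CPM labelled WT, were under the minimum of 10 CPM. Dendritic cell-like cells held 3 UMIs labelled knockdown and 21 labelled WT, a ratio of 0.201 (0.0384 to 0.674). T cell-like cells held 0 UMIs in both libraries, and tumour-like cells held 0 labelled knockdown and 2 labelled WT. Neutrophil-like cells with a UMI of an immature granule gene (Camp, Ltf, Ngp, Mmp8, Fcnb, Elane, Mpo, Prtn3 or Ctsg) had Cebpe at 10.3 CPM (4.44 to 20.3) labelled knockdown and 22.3 CPM (10.2 to 42.3) labelled WT. Those without had 14.6 CPM (8.82 to 22.9) labelled knockdown and 11.9 CPM (5.46 to 22.7) labelled WT, so no difference by these genes was detectable at this depth. Cebpb in the cells with such a UMI was at 1002 CPM labelled knockdown and 4022 CPM labelled WT, beside 1179.6 and 4608 CPM in the cells without.

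Cebpg, the dimer partner, had the flattest profile. Its levels in the 7 classes ran from 33.7 to 96.9 CPM labelled knockdown and from 54.7 to 92.0 CPM labelled WT, and most neighbours in the order of classes had overlapping intervals. Macrophage-like cells had 80.3 CPM labelled knockdown and 89.5 CPM labelled WT, a ratio of 0.897 (0.858 to 0.938), and monocyte-like cells a ratio of 0.912 (0.835 to 0.996). Neutrophil-like cells had 96.9 CPM labelled knockdown and 91.6 CPM labelled WT, a ratio of 1.06 (0.832 to 1.35). Tumour-like cells had 67.1 CPM from 99 UMIs labelled knockdown and 92.0 CPM from 220 UMIs labelled WT, a ratio of 0.729 (0.569 to 0.929), which thinning turned to 1.20. In T cell-like cells the ratio of 0.617, from 10 and 23 UMIs, had an interval of 0.262 to 1.35, and thinning turned it to 1.82, on 4 of 90 cells labelled knockdown and 3 of 123 labelled WT with a UMI.

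Cebpz, the CCAAT-binding nuclear protein, was the member next to Cebpb in having its interval below 1 in the most classes, 4 of 7. Monocyte-like cells had 67.7 CPM (63.5 to 72.1) labelled knockdown and 94.9 CPM (89.4 to 101) labelled WT, a ratio of 0.714 (0.654 to 0.779). Mixed monocyte-macrophage-like cells had 64.2 CPM labelled knockdown and 82.7 CPM labelled WT, a ratio of 0.777 (0.705 to 0.855). Macrophage-like cells were nearer to 1 with 0.925 (0.877 to 0.975), and the dendritic cell-like value was 0.699 (0.511 to 0.948). None of these passed 1.5-fold. The overlapping gene Cebpzos did not move the same way, with monocyte-like levels of 30.6 CPM labelled knockdown and 30.9 CPM labelled WT, a ratio of 0.991 (0.860 to 1.14). Cebpz was low in neutrophil-like cells, at 26.0 CPM labelled knockdown and 32.8 CPM labelled WT. T cell-like cells held 21 UMIs labelled knockdown and 19 labelled WT, a ratio of 1.57 with an interval of 0.803 to 3.08.

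**Figure D3:**
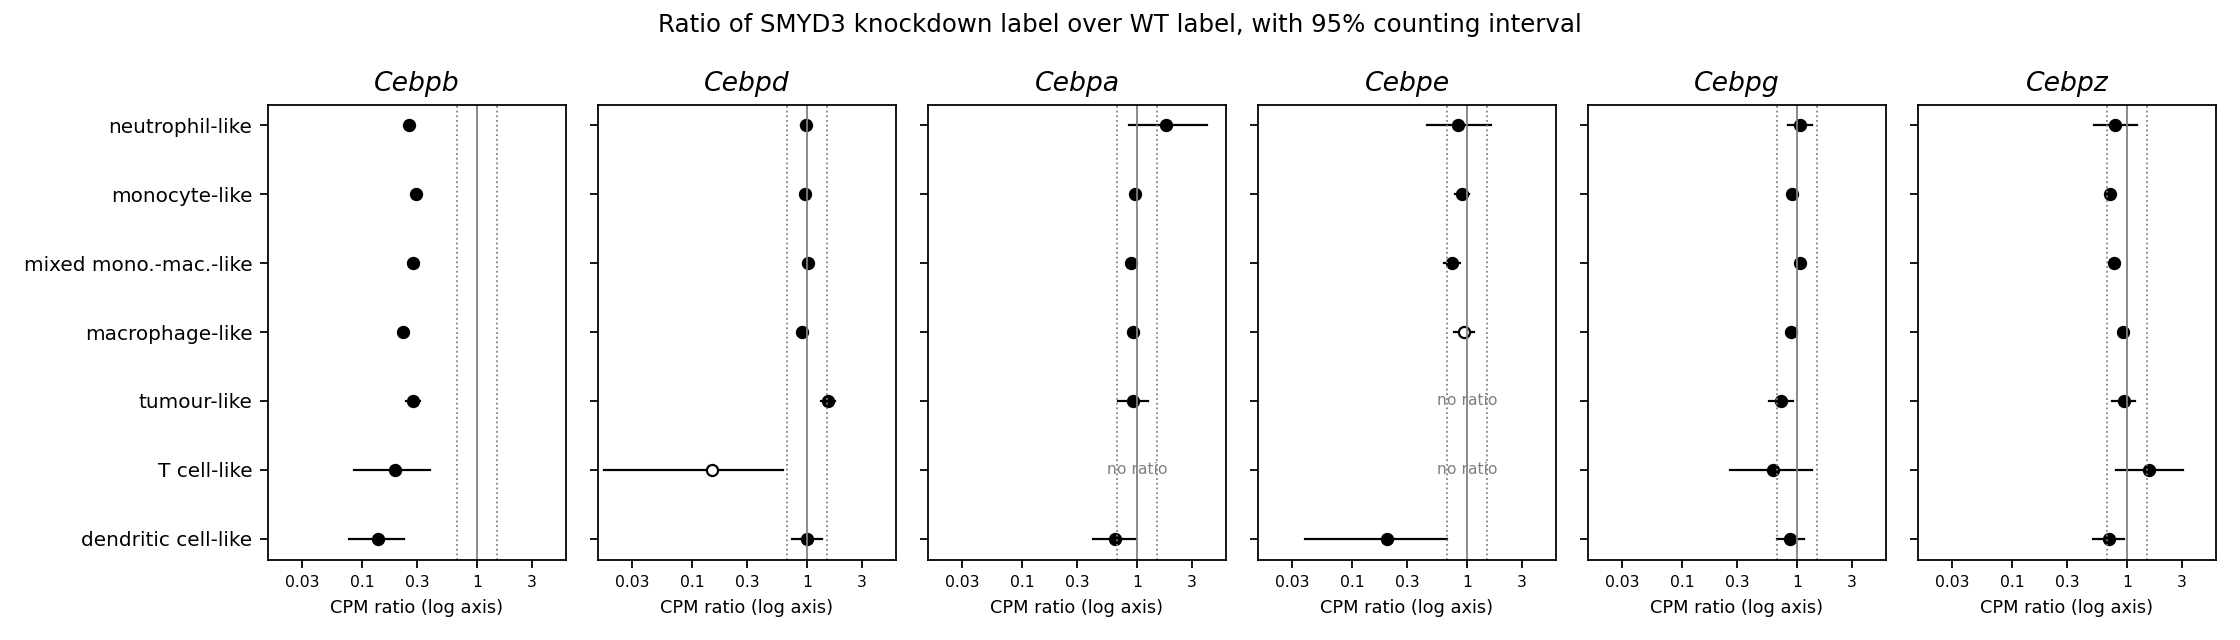
CPM ratio of the knockdown-labelled over the WT-labelled library for each gene and class, on a log axis with 95% counting intervals. The solid line marks 1, dotted lines mark 1.5-fold, open points are below the count minimum, and classes with 0 UMIs in a library have no ratio. The Cebpb points lie between 0.137 and 0.295, and most points of the other genes lie between the dotted lines.

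The make-up of the family differed with the Cebpb level by arithmetic, since fewer Cebpb UMIs raise the shares of genes that do not change. These shares thus largely restate the values that chose the family. The CPM ratio of Cebpd itself was 0.909 in macrophage-like and 1.52 in tumour-like cells. UMIs count captured molecules, so shares were taken without dividing by transcript length, though capture may differ between genes. Of the UMIs of the 5 bZIP genes in macrophage-like cells, Cebpb made up 26.5% labelled knockdown and 59.2% labelled WT, and Cebpd 49.7% and 27.6%. In tumour-like cells the leading gene also differed, with Cebpd at 51.1% of UMIs labelled knockdown and Cebpb at 63.0% labelled WT. Cebpb still led in neutrophil-like cells, with 64.5% labelled knockdown and 87.7% labelled WT, and in monocyte-like cells, with 55.3% and 79.9%. Cebpg led the dendritic cell-like cells labelled knockdown with 41.6%, against 28.8% labelled WT.

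**Figure D4:**
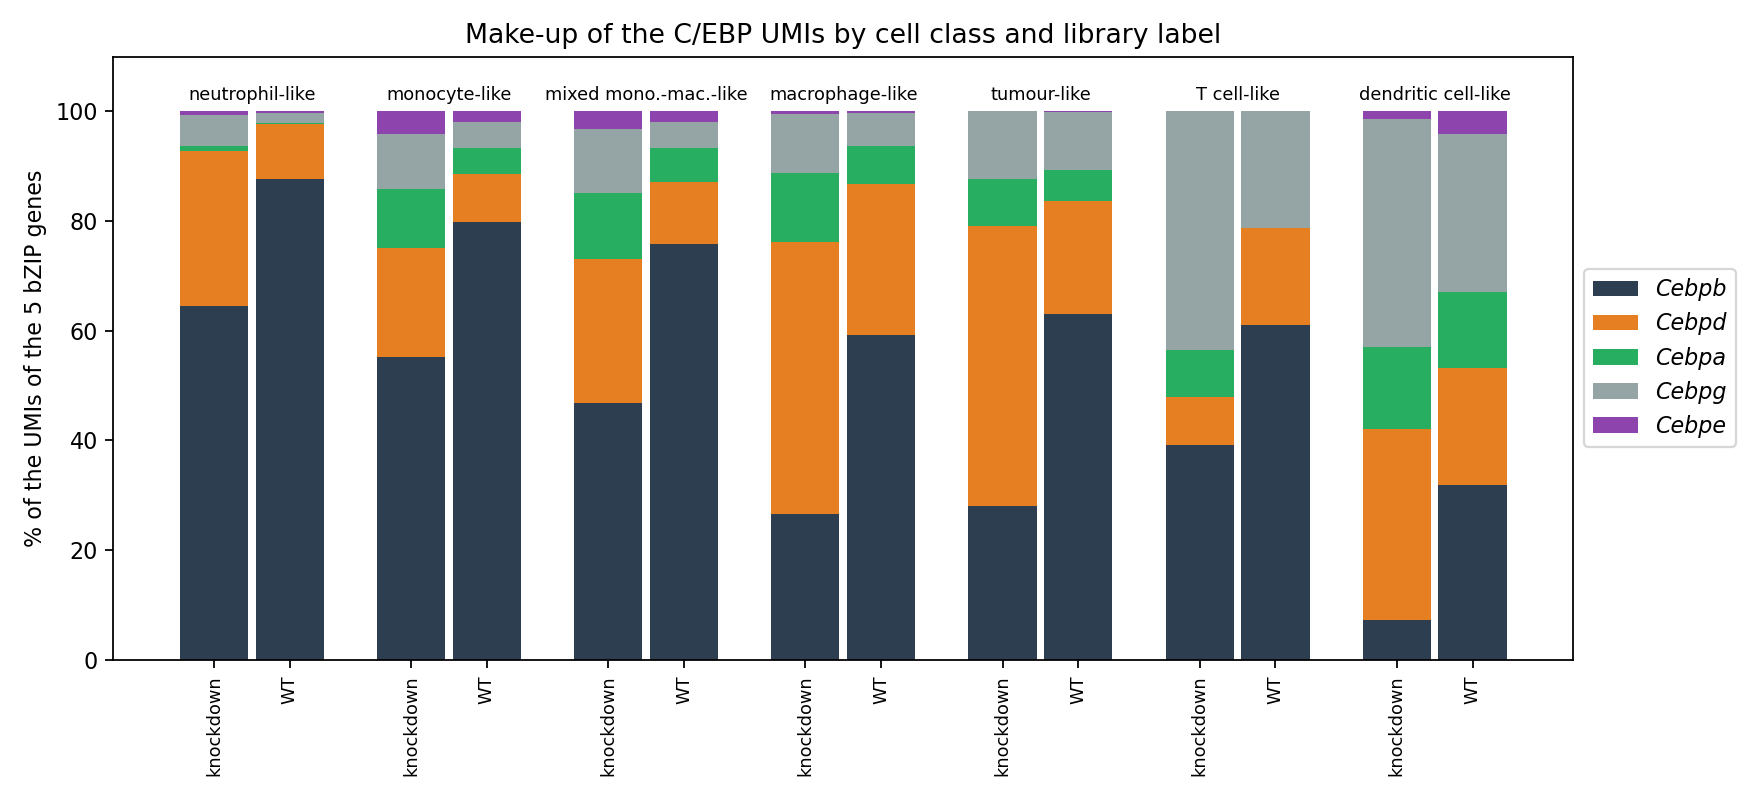
Share (%) of the UMIs of the 5 bZIP genes held by each gene, in 7 classes, with the bar of the knockdown-labelled library left of the WT-labelled bar. In macrophage-like cells Cebpb holds 26.5% against 59.2%, and Cebpd 49.7% against 27.6%. A lower Cebpb share raises the other shares by arithmetic.

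The relatives of Cebpb were also set against the presence of a Cebpb UMI in the same cell. Among macrophage-like cells thinned to 1000 UMIs, a Cebpd UMI was found in 26.0% of Cebpb-positive and 29.7% of Cebpb-negative cells labelled knockdown, and in 29.2% and 33.1% labelled WT. For Cebpa the shares were 12.7% and 9.70% labelled knockdown and 10.9% and 8.90% labelled WT, and for Cebpg 10.8% and 8.27% labelled knockdown and 10.9% and 7.89% labelled WT. Cebpd was thus found less often, and Cebpa and Cebpg more often, in the Cebpb-positive macrophage-like cells of both libraries, with no interval set on these shares. The class pools clusters of unlike levels. Labelled knockdown, these ran from 235 to 574 CPM of Cebpd and from 129 to 259 CPM of Cebpb. The part of such pooling in the shares was not tested. Cebpe was found in 16 macrophage-like cells labelled knockdown, 1 of them Cebpb-positive, and in 10 labelled WT, all 10 Cebpb-positive. In monocyte-like cells the Cebpa and Cebpg shares did not keep 1 order: Cebpa was in 7.96% of positive and 9.65% of negative cells labelled knockdown and in 8.87% and 7.42% labelled WT, and Cebpg in 8.16% and 6.63% labelled knockdown and in 9.01% and 9.89% labelled WT. Counts this sparse carry little on whether the genes are used in the same cells.

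The dimer partners and regulators of the family were followed as a list of 28 genes. In macrophage-like cells 24 had at least 20 UMIs, 1 was at least 1.5-fold lower and 0 were higher, beside 1.37% of all genes lower and 0.456% higher. Genes of this list and of those below were counted from 20 UMIs, without the minimum of 10 CPM behind the shares over all genes; 21 of the 24 passed that too. The lower gene was Jdp2, an AP-1 repressor, at 12.0 CPM labelled knockdown and 36.6 CPM labelled WT, a ratio of 0.327 (0.296 to 0.360). Jdp2 had ratios of 0.365 in mixed monocyte-macrophage-like, 0.377 in monocyte-like, 0.386 in neutrophil-like, 0.425 in tumour-like and 0.217 in dendritic cell-like cells, on levels of 2.82 to 22.4 CPM labelled knockdown. Fos, an AP-1 subunit, was at 1793 CPM labelled knockdown and 2571 CPM labelled WT in macrophage-like cells, a ratio of 0.698 (0.691 to 0.704). Junb and Ets2 had macrophage-like ratios of 0.714 and 0.704. Jun, the main partner of Fos, was higher labelled knockdown in other classes, at 3335 CPM against 2464 CPM in neutrophil-like cells, a ratio of 1.35 (1.30 to 1.41), and at a ratio of 1.30 in monocyte-like cells. The median log2 difference of the list was -0.13 in macrophage-like cells, where the median of all genes tested was -0.00, and -0.03 in neutrophil-like cells, where it was -0.07. In tumour-like cells 6 of 21 counted genes were at least 1.5-fold lower, beside 8.02% of all genes, with Atf3 at 215 CPM labelled knockdown and 403 CPM labelled WT and Fos at 659 and 1270 CPM. Ddit3, the stress-induced C/EBP homologous protein, had a macrophage-like ratio of 0.777 (0.725 to 0.833) and a neutrophil-like ratio of 1.20 (1.04 to 1.38).

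Genes known as targets of C/EBP-beta or C/EBP-delta in macrophages went both ways. All 27 were counted in macrophage-like cells, 3 at least 1.5-fold lower and 0 higher, with a median log2 difference of -0.03. Of the 20 that also passed 10 CPM, 2 were lower, beside 1.37% of all genes lower and 0.456% higher. Arg1, the arginase of alternatively activated macrophages and a well-known C/EBP-beta target, was at 917 CPM labelled knockdown and 624 CPM labelled WT there, a ratio of 1.47 (1.45 to 1.49). Arg1 in neutrophil-like cells was at 117 CPM labelled knockdown and 74.3 CPM labelled WT, a ratio of 1.58. Il10, an anti-inflammatory cytokine, had a macrophage-like ratio of 0.458 (0.394 to 0.532) from 267 and 543 UMIs, and Nr4a1, an immediate early nuclear receptor, 0.594 (0.570 to 0.620). Saa3, an acute phase gene, was lower in several classes, at 356 CPM labelled knockdown and 678 CPM labelled WT in mixed monocyte-macrophage-like cells and at 416 and 804 CPM in neutrophil-like cells, with ratios of 0.526 and 0.518. Il6 had ratios of 0.561 and 0.534 in mixed monocyte-macrophage-like and monocyte-like cells, on 15.6 and 16.1 CPM labelled knockdown. Plin2, a lipid droplet coat protein, was higher, with ratios of 1.52 in monocyte-like and 1.55 in neutrophil-like cells. In monocyte-like cells 1 of 23 counted genes was at least 1.5-fold lower and 3 were higher, beside 1.59% and 0.71% of all genes. In dendritic cell-like cells 6 of 15 were lower, beside 9.79% of all genes, with Lyz2 at 427 CPM labelled knockdown and 851 CPM labelled WT and Cd14 at 25.4 and 54.6 CPM. In T cell-like cells, where Il1b had a ratio of 2.44 and S100a9 of 1.67, the genes named are those of myeloid cells.

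Granulocyte genes known as targets of C/EBP-epsilon or C/EBP-alpha were too few in neutrophil-like cells to be told apart from the shares over all genes. Of 14 counted, 0 were at least 1.5-fold lower and 1 was higher, beside 8.71% and 5.97% of all genes, with a median log2 difference of -0.00. That gene was Ly6g, a neutrophil surface antigen, at 41.9 CPM labelled knockdown and 20.7 CPM labelled WT, a ratio of 2.02 (1.28 to 3.32). Mmp9, a granule gelatinase that was among the gate markers, was at 322 CPM labelled knockdown and 405 CPM labelled WT. Chil3, a chitinase-like secretory protein, had ratios of 0.775 in neutrophil-like and 1.98 in mixed monocyte-macrophage-like cells, where it was a gate marker.

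Receptors and signals upstream of the family were followed as a list of 16 genes, too few to be told apart from the shares over all genes. All 16 were counted in macrophage-like and monocyte-like cells, with 1 and 0 at least 1.5-fold lower, beside 1.37% and 1.59% of all genes, and 0 higher in either, beside 0.456% and 0.71%. The macrophage-like gene, named after its values were seen, was Il1r1, the receptor of interleukin 1, at 0.315 CPM labelled knockdown and 0.609 CPM labelled WT, a ratio of 0.518 whose interval of 0.256 to 1.01 includes 1. Stat3, which carries the signals of IL-6 and G-CSF, had ratios of 0.867 in macrophage-like, 0.827 in monocyte-like and 0.832 in mixed monocyte-macrophage-like cells. Socs3, its feedback inhibitor, had a macrophage-like ratio of 0.738 (0.719 to 0.757), and stood higher in T cell-like cells, at 135 CPM from 40 UMIs labelled knockdown and 45.2 CPM from 19 UMIs labelled WT, a ratio of 2.99 (1.69 to 5.46). In the T cell-like class 7.27% of all genes were that much higher, and 1 of the 6 upstream genes counted. Il6ra, the receptor of interleukin 6, had a ratio of 0.665 (0.481 to 0.911) in dendritic cell-like cells. Tlr2, a receptor for bacterial lipoproteins, was higher in neutrophil-like cells, at 306 CPM labelled knockdown and 210.0 CPM labelled WT, a ratio of 1.46.

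Genes with the most similar pattern were ranked by Pearson's r of log2 CPM plus 5 over the 14 combinations of class and library, among 6334 genes with at least 50 CPM in 1 of them. The classes share 2 libraries and the points are not independent, so r is a description. For Cebpb the highest were Ythdf3, a reader of methylated RNA (r = 0.941), the ferritin pseudogene Fth1-ps (0.939) and Tec, a cytoplasmic tyrosine kinase (0.918). For Cebpa they were Tubb6 (0.970), Mapk3 (0.954) and Parvb (0.952), and for Cebpd Tnfrsf1a (0.970), Atp6v0a1 (0.958) and Rab31 (0.943). Pilrb2, Rab6a and Tmem170b led for Cebpe, with r from 0.922 to 0.944. Plekhm2, Fnip2 and Rab31 led for Cebpg, with 0.935 to 0.959. Kif5b, Rwdd4a and Yrdc led for Cebpz, with 0.946 to 0.965.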

How the data were processed

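The authors deposited raw UMI counts per gene and cell barcode of both libraries in 1 matrix, made with Cell Ranger 7.1.0 on build mm10, per the submitters' processing notes. The annotation release and any equalisation of depth are not stated there. Barcodes were assigned to a sample through the deposited barcode table, whose names are the sample titles. Cells with at least 500 UMIs, 200 genes and at most 20% mitochondrial UMIs were kept (scanpy 1.11.5). Scrublet's own threshold called 0 doublets, so the top 0.8% per 1000 cells by its score were removed (723 labelled knockdown, 603 labelled WT). Each cell was gated by the mean of its log-scaled markers, with a floor of 0.2 and a margin of 1.5 over the next class. UMIs were summed per class and library and divided by all UMIs of the class (CPM). Intervals at 95% are exact Poisson for levels, conditional binomial for ratios and Clopper-Pearson for shares, and cover counting error only, since cells of 1 library are not replicates. A count of 0 allows 3 UMIs. A gene was tested from 20 UMIs and 10 CPM upward in at least 1 library, and differences used CPM plus 5 on the log2 scale. Clusters were made with Leiden at resolution 1.0 on 2000 variable genes without the members. The ratio script was tested on simulated data.

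Named were all members, up to 4 genes per list and class with the largest log2 difference, the 3 genes most like each member, and up to 10 genes lower in every class. Outside these rules, Ddit3, Cebpzos, Smyd3, C1qa, Apoe and the macrophage-like Il1r1 were also named. Members, lists and markers were chosen with earlier results of these data known. IDs matched GENCODE vM21 for 94.1% of genes. Protein sequences and the promoters of Cebpd, Cebpe and Cebpz were not used here.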

Additional observations from a re-analysis of the deposited data

Results flagged for a closer look

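The Cebpd ratio of the knockdown label over the WT label was 1.52 in tumour-like cells and 0.909 in macrophage-like cells. The ratios of the summed cells thus lay on opposite sides of 1 in the same pair of libraries. The difference between the classes was not tested, since each label has 1 library. The tumour-like value rested on 58 cells labelled knockdown and 102 labelled WT. It was above 1 only in the deepest quartile, at 2.33, against 0.468 and 0.562 in the middle quartiles. The shallowest quartile gave 0.524, on 1 UMI labelled knockdown and 12 labelled WT. With each cell weighing the same the tumour-like ratio was 1.02, and thinned to 1000 UMIs it was 1.01.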

How the results depend on the processing

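No paired analysis was possible because each label has 1 library. In 70 combinations of 7 classes and 10 alternatives, Cebpb stayed below 1, and 61 ratios moved by less than their interval. Those that moved, knockdown label over WT label, were 0.0651 in T cell-like, 0.405 in dendritic cell-like, 0.234 in macrophage-like, 0.290 in mixed monocyte-macrophage-like and 0.311 in monocyte-like cells when thinned to 1000 UMIs. With clusters in place of gates they were 0.264 in dendritic cell-like and 0.314 in monocyte-like cells. In mixed monocyte-macrophage-like cells the looser gate gave 0.253, and the gate without C/EBP target genes gave 0.262. These 2 gates were chosen after seeing the data. Leaving mitochondrial and pancreatic genes out of the totals gave 0.137 to 0.295. Thinning turned the macrophage-like Cebpa ratio to 1.02 and the tumour-like Cebpg ratio to 1.20. Beyond Cebpb, 26 of 320 ratios moved beyond their interval, and 13 of these lay on the other side of 1, and the cause was not tested. Thinning gave 1.82 for T cell-like Cebpg, 2.87 for tumour-like Cebpz and 1.70 for macrophage-like Cebpe, and the clusters gave 1.23 for monocyte-like Cebpe. Scaling to the median gene shifted no class by more than 0.07 on the log2 scale.

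Genes at least 1.5-fold lower followed the minimum by construction. With 100 UMIs and 50 CPM they were 40 in T cell-like, 139 in dendritic cell-like, 49 in macrophage-like, 52 in mixed monocyte-macrophage-like, 40 in monocyte-like, 68 in neutrophil-like and 143 in tumour-like cells. With no minimum they were 4034, 4252, 5804, 5034, 4313, 4402 and 4484 in the same order. Of 7 places in the order of classes, thinning kept 3 for Cebpa labelled knockdown, 2 for Cebpg labelled WT and 2 for Cebpz labelled WT. Equal weights per cell kept 3 for Cebpg labelled knockdown, 3 for Cebpd labelled WT, 2 for Cebpg labelled WT and 3 for Cebpz labelled WT. T cell-like values rest on few molecules, with 9 Cebpb UMIs from 91 cells labelled knockdown, and neutrophil-like cells were shallow, at a median of 1449 UMIs labelled knockdown and 1378 labelled WT.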
